A study of Mus musculus with 288 samples.

Results

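The renin-angiotensin-aldosterone system was followed through 9 genes, which were chosen by name from the 35904 genes measured. All 9 have a value in every one of the 288 libraries, which for some is 0 TPM. They are Agt (the precursor angiotensinogen), Ren1 (renin), Ace (angiotensin-converting enzyme), the angiotensin II receptors Agtr1a, Agtr1b and Agtr2, Nr3c2 (the mineralocorticoid receptor), Hsd11b2 (11-beta-hydroxysteroid dehydrogenase 2) and Atp6ap2 (the prorenin receptor). The libraries come from wild-type male C57BL/6J mice, 8 weeks old, which breathed room air (normoxia) or were exposed in their inactive phase to intermittent hypoxia (IH), in which inhaled oxygen swung between 21% and 8%, for 7 days. Both groups then spent 2 days in constant normoxic darkness, and cerebellum, heart, kidney, liver, lung and muscle were collected on the last of these days, so that all values were measured after IH had ended. Each tissue and treatment had 24 libraries, 3 at each of 8 time points 3 hours apart, and each library came from 1 mouse. The study took several organs from the same mice. Which libraries share a mouse is not in the labels, so libraries of different tissues were treated as independent in the tests.

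Renin, released from the kidney, cuts angiotensinogen to angiotensin I, and angiotensin-converting enzyme on endothelial cells turns this into angiotensin II, which raises blood pressure through the type 1 receptor and stimulates the adrenal cortex to make aldosterone. Aldosterone acts on the mineralocorticoid receptor in the distal kidney tubule, where 11-beta-hydroxysteroid dehydrogenase 2 keeps the receptor free for it by inactivating glucocorticoids. Activity of the system is set largely by renin release and by peptides in the blood, which RNA does not measure.

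The promoters of 4 members are shown, 3 whose RNA was concentrated in a single tissue (Ren1 in kidney, Agt in liver, Ace in lung) and Atp6ap2, which was expressed in every tissue. Each run covers 250 bases before to 50 bases after the RefSeq start of transcription (GRCm38.p6, 5′ to 3′ on the strand of the gene), and capitals mark a match to TATAAA (the TATA box), ACGTG (the core of the hypoxia response element) or AGAACA (part of the site bound by steroid receptors) on either strand.
Ren1, chr1:133350424-133350723, plus strand: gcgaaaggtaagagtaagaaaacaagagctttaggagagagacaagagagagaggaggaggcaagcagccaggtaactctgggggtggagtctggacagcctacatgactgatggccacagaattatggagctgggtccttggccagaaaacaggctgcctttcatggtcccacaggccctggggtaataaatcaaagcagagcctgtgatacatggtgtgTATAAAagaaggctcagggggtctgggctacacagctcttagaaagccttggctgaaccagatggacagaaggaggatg
Agt, chr8:124569657-124569956, minus strand: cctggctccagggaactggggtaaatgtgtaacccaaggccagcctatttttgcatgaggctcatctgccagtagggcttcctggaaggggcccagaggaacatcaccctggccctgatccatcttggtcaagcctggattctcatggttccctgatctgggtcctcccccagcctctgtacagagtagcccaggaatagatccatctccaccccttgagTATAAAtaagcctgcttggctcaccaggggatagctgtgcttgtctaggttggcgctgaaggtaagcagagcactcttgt
Ace, chr11:105967698-105967997, plus strand: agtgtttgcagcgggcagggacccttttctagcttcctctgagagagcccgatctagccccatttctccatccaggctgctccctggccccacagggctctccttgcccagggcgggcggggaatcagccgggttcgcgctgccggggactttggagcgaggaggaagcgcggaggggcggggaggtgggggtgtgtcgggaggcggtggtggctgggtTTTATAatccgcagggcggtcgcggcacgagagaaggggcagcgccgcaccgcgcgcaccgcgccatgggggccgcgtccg
Atp6ap2, chrX:12587509-12587808, plus strand: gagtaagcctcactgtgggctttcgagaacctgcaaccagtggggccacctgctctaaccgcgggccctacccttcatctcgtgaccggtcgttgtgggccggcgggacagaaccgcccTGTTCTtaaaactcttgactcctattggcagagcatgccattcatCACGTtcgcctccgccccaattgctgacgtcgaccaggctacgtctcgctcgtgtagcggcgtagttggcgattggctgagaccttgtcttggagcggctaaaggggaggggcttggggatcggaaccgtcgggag
The TATA box letters stood 29 bases before the start of Ren1, 30 before that of Agt and, on the opposite strand, 31 before that of Ace, and 13.6% of 32851 mouse promoters of this length hold them. They also stood 31 bases before the start of Agtr1b (chr3:20367128-20367427). The Atp6ap2 window held none of them, but a single ACGTG (19.6% of promoters hold one) and a single AGAACA (19.0%), both on the opposite strand. CACGTG, the E-box, which is held by 7.15% of promoters and contains ACGTG, was in none of the windows of the 7 members that matched the RefSeq table, nor were any of the 4 motifs in the windows of Agtr2, Nr3c2 or the internal start of Ace. These matches are a description of the letters only.

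Values are in TPM, a relative measure of transcript number that is scaled for transcript length and to the same sum in each library, so levels can be set beside each other between genes. Angiotensinogen RNA was highest in liver, renin and Hsd11b2 RNA were all but restricted to kidney, Ace RNA was highest in lung, and Atp6ap2 RNA was highest in cerebellum, all in normoxia. Of 35 pairs of neighbouring tissues in the order of levels of the 7 members that could be tested, 26 differed (limma, adjusted p of 0.05 or less). Of all 18080 genes tested, the share that differed was 88.6% between cerebellum and heart, 86.9% between cerebellum and kidney, 90.9% between cerebellum and liver, 89.1% between cerebellum and lung and 86.7% between cerebellum and muscle. It was 79.9%, 78.3%, 86.1% and 65.8% between heart and kidney, liver, lung and muscle, and 78.2%, 84.8% and 75.9% between kidney and liver, lung and muscle. It was 88.8% between liver and lung, 78.6% between liver and muscle and 84.9% between lung and muscle, so a difference between tissues was the rule for genes at large.

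**Figure D1:**
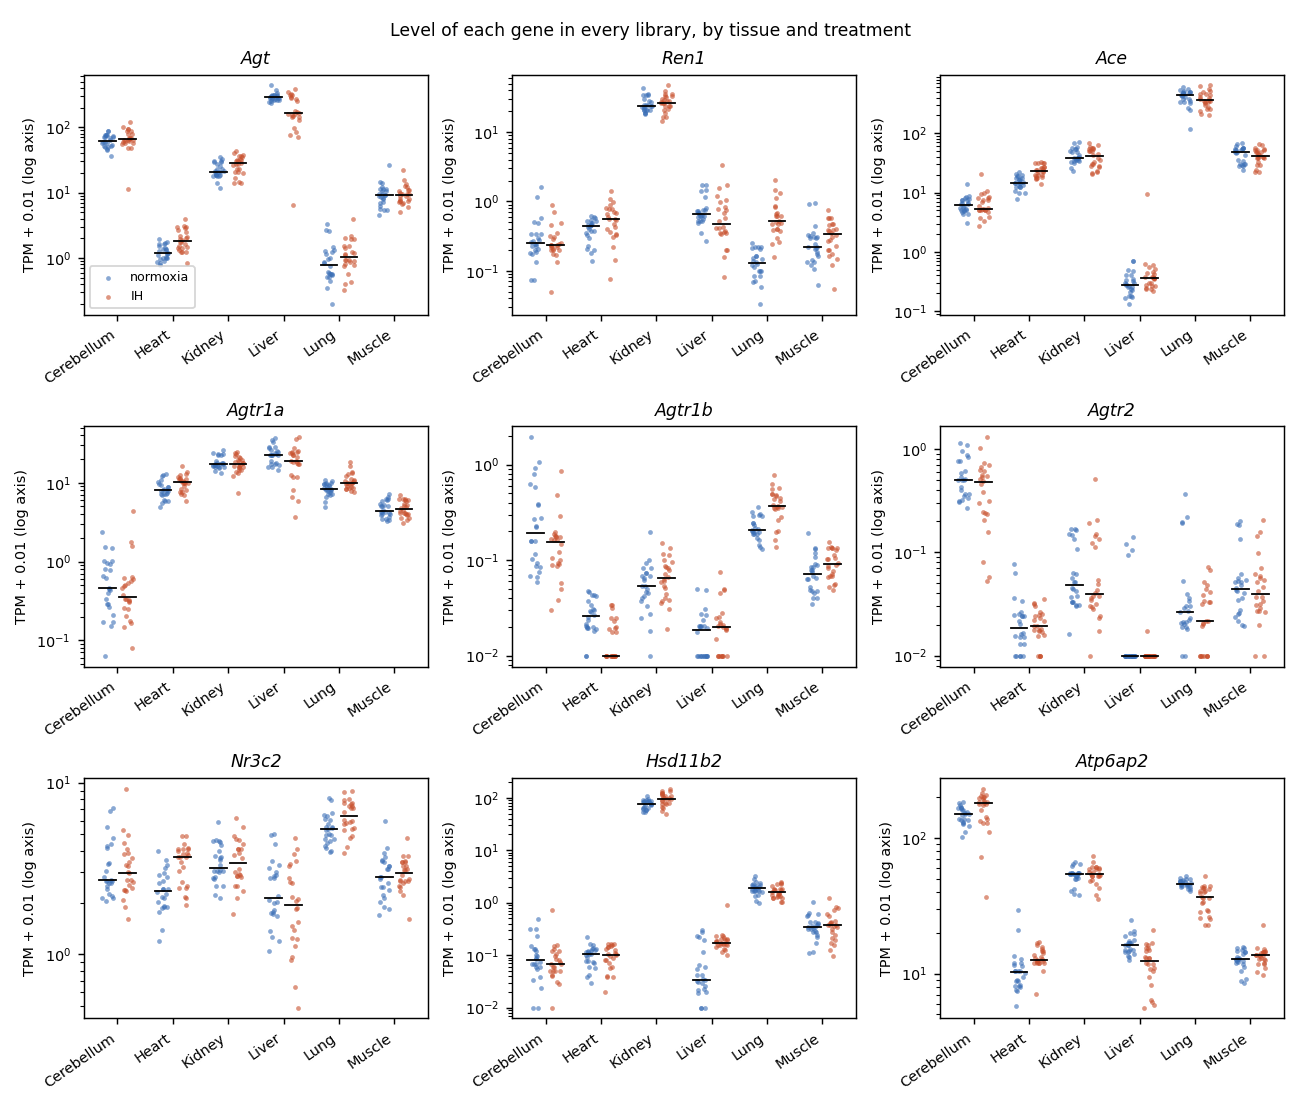
Level of each of the 9 genes in every library, as TPM + 0.01 on a log axis, by tissue, with normoxia in blue, IH in red and the median as a black bar. Renin and Hsd11b2 stand out in kidney, Ace in lung and Agt in liver, and most tissue differences are far larger than the difference between treatments.

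Agt (GRCm38, chr8:124556534-124569706, minus strand) averaged 294 ± 43.3 TPM (SD, n = 24) in liver under normoxia, 63.2 ± 13.7 in cerebellum, 22.8 ± 6.10 in kidney, 9.80 ± 4.48 in muscle, 1.24 ± 0.320 in heart and 1.02 ± 0.775 in lung. Every neighbour in this order differed, the closest being heart and lung (a log2 difference of 0.30, adjusted p = 0.0125, limma). Muscle libraries also held adipocyte markers at a summed 1668 to 10131 TPM in normoxia, and fat is known to make angiotensinogen. How much of the Agt RNA in muscle came from fat was not tested.

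Ren1 (chr1:133350510-133360325, plus strand) ranged from 18.01 to 44.0 TPM in kidney under normoxia, with a median of 23.8. Its mean was below 1 TPM in each of the other 5 tissues, from 0.127 ± 0.0598 in lung to 0.779 ± 0.402 in liver. Kidney differed from liver by 4.39 on the log2 scale (adjusted p = 2.72e-86, limma), whereas heart and cerebellum, and cerebellum and muscle, did not differ beyond their spread (adjusted p = 0.182 and 0.332). Some kidney libraries also carried adrenal RNA. The 7 adrenal cortex markers summed to at least 10 TPM in 6 of 24 normoxia and 9 of 24 IH libraries, up to 182 TPM, and Cyp11b2, the aldosterone synthase, reached 2.27 TPM there and at most 0.0511 TPM in the other kidney libraries. In normoxia, median renin was 23.4 TPM in the libraries with adrenal RNA and 24.3 TPM in the rest.

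Ace (chr11:105967945-105989964, plus strand) averaged 420 ± 112 TPM in lung, followed by muscle with 45.1 ± 13.3 and kidney with 43.1 ± 12.5, which did not differ (adjusted p = 0.678). It was 14.99 ± 3.66 in heart, 6.43 ± 2.14 in cerebellum and 0.308 ± 0.152 in liver. Lung, with its dense capillary bed, also held the most endothelial marker RNA, a median sum of 1259 TPM over 6 genes against 196 in muscle and 52.0 in kidney. Relative to that sum Ace was highest in kidney, at a median of 81.0% against 33.1% in lung, 22.4% in muscle and 6.21% in heart. In kidney Ace is known to sit on the proximal tubule brush border as well as on vessels.

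The receptors differed widely. Agtr1a (chr13:30336441-30382867, plus strand), the main type 1 receptor of rodents, averaged 23.2 ± 6.09 TPM in liver, 18.3 ± 3.33 in kidney, 8.38 ± 1.48 in lung, 8.33 ± 2.20 in heart, 4.75 ± 1.13 in muscle and 0.649 ± 0.546 in cerebellum. Lung and heart were the only neighbours of this order that did not differ (adjusted p = 0.807). Agtr1b (chr3:20314473-20367177, minus strand), its close paralog, and Agtr2 (chrX:21484544-21489164, plus strand), which opposes type 1 signalling, were below a mean of 1 TPM everywhere and were not compared between tissues. Both were highest in cerebellum, at 0.361 ± 0.439 and 0.555 ± 0.255 TPM, and Agtr2 was listed at 0 in 20 of 24 liver libraries. Reads that fit both type 1 receptors were split by the quantification, so the low values of Agtr1b are uncertain.

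On the aldosterone side, Nr3c2 (chr8:76899442-77245012, plus strand) was even across tissues, from 2.41 ± 0.674 TPM in heart to 5.43 ± 1.11 in lung. Lung differed from the next tissue, kidney (log2 difference 0.59, adjusted p = 5.89e-07). Kidney and cerebellum, and cerebellum and muscle, did not differ beyond their spread (adjusted p = 0.524 and 0.257), nor did heart and liver (0.981), while muscle and heart differed at the edge of the threshold (adjusted p = 0.04997). Hsd11b2 (chr8:105518755-105523988, plus strand) averaged 76.3 ± 14.5 TPM in kidney and 1.90 ± 0.507 in lung, with 0.370 ± 0.198 or less in the rest. Its RNA was thus above 1 TPM in the tissue of classical aldosterone action and in lung, while the receptor was present in every tissue.

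Atp6ap2 (chrX:12587801-12617049, plus strand), which binds prorenin and is also an accessory subunit of the vacuolar proton pump, was the most widely expressed member. It averaged 148 ± 22.1 TPM in cerebellum, 53.0 ± 7.46 in kidney, 46.3 ± 2.94 in lung and 12.7 ± 2.03 in muscle, had a median of 16.2 in liver and averaged 11.0 ± 4.91 in heart, and all neighbours differed (largest adjusted p = 0.0235, kidney and lung).

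IH was then compared with normoxia over all time points of a tissue, on a scale shared by the libraries of a tissue (median of ratios). Agt fell in liver and Atp6ap2 fell in lung, the 2 of 31 tests of a member in a tissue (mean of at least 1 TPM) that passed both thresholds, a 1.5-fold change and an adjusted p of at most 0.05. Another 9 passed the adjusted p alone, all higher in heart (Ace, Agt, Nr3c2, Atp6ap2) and kidney (Hsd11b2, Agt) and lower in lung (Ace, Hsd11b2) and liver (Atp6ap2), and none passed in cerebellum or muscle. Of all genes tested, 4.39% passed both thresholds as lower in lung and 2.55% in liver. In either direction 2079 of 15426 genes did so in lung and 414 of 11334 in liver. Among members this was 1 of 6 in lung and 1 of 4 in liver. In the tissues without a called member the share in either direction was 2.95% in heart, 2.64% in cerebellum, 0.783% in kidney and 0.374% in muscle. By the adjusted p alone the share was 70.4% in lung, 24.2% in liver, 45.2% in heart, 15% in cerebellum, 19.8% in kidney and 10.4% in muscle. Against this, 3 of 6 members passed the adjusted p in lung and 4 of 5 in heart. The scale matters for these directions, since without the scaling the median change of all genes was 0.21 in place of -0.08 (log2) in lung, 0.15 in place of 0.04 in heart and -0.12 in place of -0.01 in liver.

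**Figure D2:**
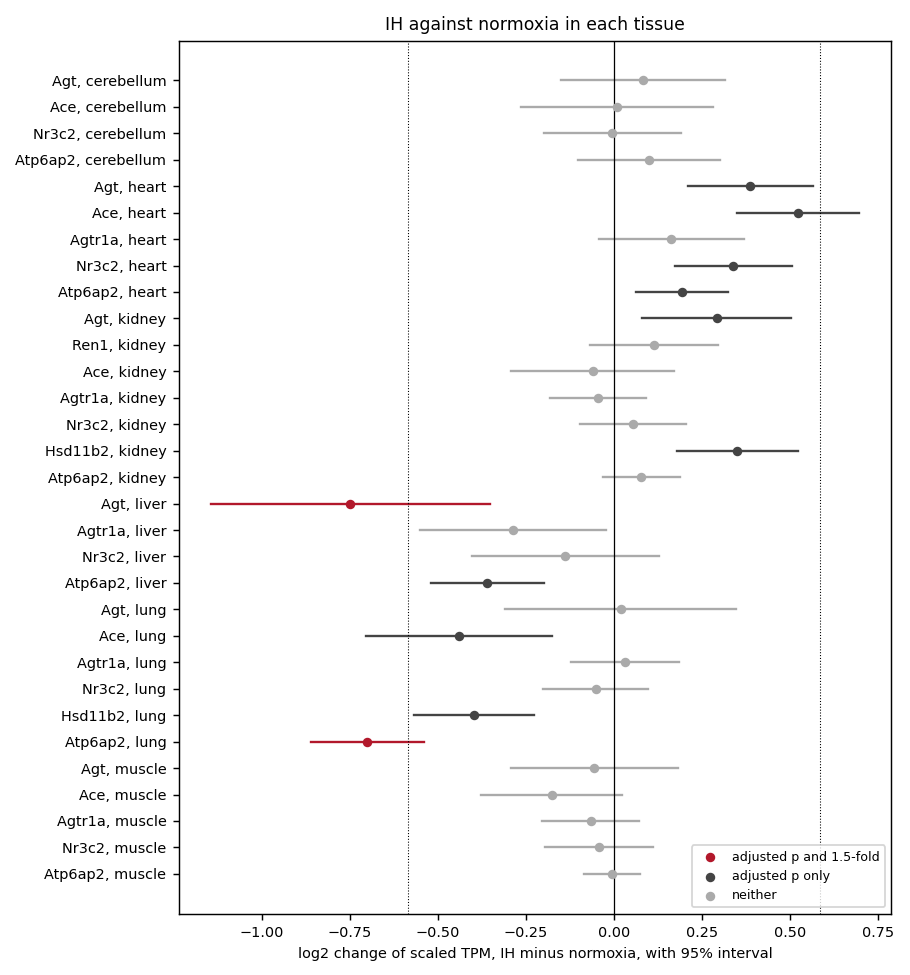
Log2 change of scaled TPM from normoxia to IH with its 95% interval, for the 31 tests of a member in a tissue, and dotted lines at a 1.5-fold change. Agt in liver (-0.75) and Atp6ap2 in lung (-0.70), in red, lie past the left line and pass the test.

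In liver, Agt ranged from 235 to 437 TPM with a median of 286 in normoxia, and from 6.47 to 391 with a median of 164 after IH. Of the 24 IH libraries, 15 lay below the lowest normoxia library, and the mean was lower at 8 of 8 time points. The log2 change was -0.75 (SE 0.20, adjusted p = 0.00435, limma). The IH libraries were not alike, however. Those numbered replicate 1 averaged 123.4 ± 40.2 TPM and replicate 2 149 ± 76.0 (SD, n = 8 time points), whereas replicate 3 averaged 314 ± 42.7, above the means of 283, 295 and 305 of the 3 normoxia sets. The change was -1.14 and -1.27 within replicates 1 and 2 and 0.14 within replicate 3. The call was lost without replicate 1 (-0.56, adjusted p = 0.296) or 2 (-0.49, adjusted p = 0.101), and the change was -1.20 without replicate 3. Over all genes of the liver, 1459 and 1001 were called within replicates 1 and 2 and 1 within replicate 3. The labels do not say what a replicate number stands for.

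Other liver genes moved with Agt. The summed level of 5 liver markers ranged from 49211 to 77755 TPM in normoxia and from 1152 to 66249 after IH, with medians in IH of 36254, 38366 and 59728 in replicates 1, 2 and 3, and 3 of the 5 were called lower. Agt was 0.405% to 0.850% of that sum in normoxia (median 0.509%) and 0.249% to 0.722% after IH (median 0.438%). The part of this in the result was not tested, and in bulk tissue fewer cells of a type and less RNA per cell cannot be told apart. The lowest library, IH at 13:30 of replicate 2, goes against its label: it held 1152 TPM of liver markers and 3694 TPM of 4 heart markers, and a single predicted gene, Gm19220, took 63.3% of its TPM. Without it the change was -0.59 (adjusted p = 0.000326).

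Also in liver, Atp6ap2 had a median of 16.2 TPM in normoxia (12.6 to 24.8) and 12.4 after IH (5.596 to 20.9). Of the IH libraries, 12 of 24 lay below the lowest normoxia value. The log2 change of -0.36 (SE 0.08, adjusted p = 0.000903, limma) was under 1.5-fold, and it lost the adjusted p without replicate 1 or 2 (0.0597 and 0.128). Agtr1a was lower by 0.29 on the log2 scale and did not pass (adjusted p = 0.103).

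In lung, Atp6ap2 ranged from 40.6 to 52.3 TPM (median 45.9) in normoxia and from 22.9 to 52.2 (median 36.5) after IH, and 16 of 24 IH libraries lay below every normoxia library. The log2 change was -0.70 (SE 0.08, adjusted p = 1.72e-10, limma), and it was -0.72, -0.90 and -0.51 within replicates 1, 2 and 3. The mean was lower at 8 of 8 time points. With TPM as deposited the change was -0.40 (adjusted p = 2.01e-06), under 1.5-fold, and with a term for the number of genes detected -0.23 (adjusted p = 0.0302). Of 10 other subunits and partners of the vacuolar pump, 9 passed the adjusted p as lower and 1 as higher, with a median log2 change of -0.48, where 41.5% of all lung genes passed as lower and 28.9% as higher and the median of all was -0.08. The 2 called at 1.5-fold were Atp6v0c, of the membrane ring (-0.60, SE 0.11), and Atp6v1h, of the cytosolic part (-0.62, SE 0.07). Both were under 1.5-fold with TPM as deposited (-0.30 and -0.32) and without replicate 2 (-0.49 and -0.54), Atp6v0c also without replicate 1 (-0.50), and Atp6v0c turned to 0.19 with the term for genes detected. All 5 lung markers also passed the adjusted p as lower, and 4 were called, with a median log2 change of -0.79. Their sum had a median of 170576 TPM in normoxia (135986 to 264207) and 147277 after IH (34578 to 205116). The part of this in the changes of Atp6ap2 and the pump genes was not tested.

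Lung Ace ranged from 119 to 595 TPM with a median of 449 in normoxia and from 200 to 640 with a median of 360 after IH, so the groups overlapped widely. The scaled log2 change was -0.44 (SE 0.13, adjusted p = 0.00278, limma) and under 1.5-fold. It was -0.95 and -0.59 within replicates 1 and 2 and 0.18 within replicate 3, and it did not pass without replicate 1 (-0.20, adjusted p = 0.333) or with TPM as deposited (-0.14, adjusted p = 0.377). With a term for genes detected it turned to 0.46 (adjusted p = 0.00185). All 6 endothelial markers passed the adjusted p as lower in lung (median log2 change -0.64), their sum going from a median of 1259 TPM (689 to 1563) to 1076 (624 to 1359). Ace was 33.1% of that sum at the median in normoxia and 37.2% after IH.

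Lung Hsd11b2, at 1.87 TPM (median, 0.959 to 3.18) in normoxia and 1.58 (1.00 to 2.47) after IH, changed by -0.40 (SE 0.09, adjusted p = 6.29e-05, limma). With TPM as deposited it did not pass (-0.17, adjusted p = 0.0834), nor with the term for genes detected (-0.04, adjusted p = 0.813). Agt, Agtr1a and Nr3c2 in lung had scaled log2 changes between -0.05 and 0.03 and did not pass.

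Renin RNA in lung was far below 1 TPM in most libraries and was tested only without the filter on low values. It ranged from 0.0233 to 0.238 TPM (median 0.119) in normoxia and from 0.150 to 2.06 (median 0.508) after IH, and 22 of 24 IH libraries lay above the highest normoxia library. On the log2(TPM + 0.5) scale, which understates changes of low genes, it rose by 0.68 (SE 0.09, adjusted p = 8.86e-09, limma without a filter), and 7.03% of 34148 genes were called higher in that fit. The lung libraries also held RNA of more genes after IH, 23622 to 28284 (median 24789) against 21746 to 25400 (median 22691) in normoxia, and with that number as a term renin changed by 0.16 (adjusted p = 0.265). The change was under 1.5-fold with a pseudocount of 1 (0.43) and without replicate 2 (0.57). Mean levels within replicates 1, 2 and 3 of IH were 0.632, 0.932 and 0.380 TPM, against 0.149, 0.138 and 0.0929 in normoxia.

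**Figure D3:**
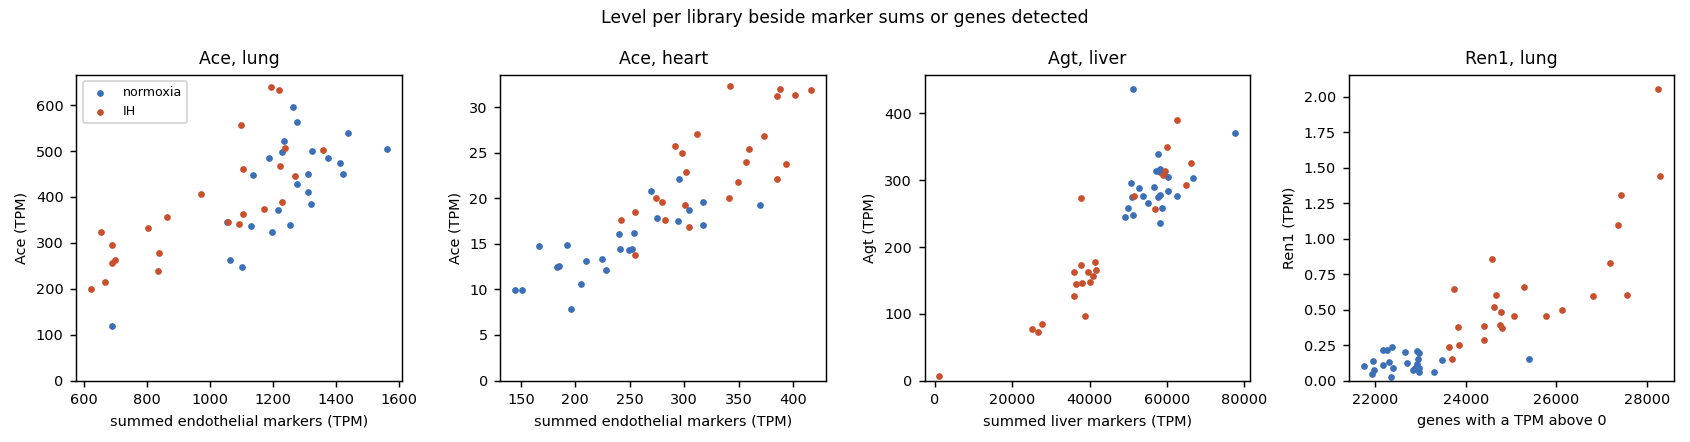
Level per library of Ace in lung and heart against the summed endothelial markers, of Agt in liver against the summed liver markers, and of Ren1 in lung against the count of genes detected (TPM above 0), with normoxia in blue and IH in red. IH livers low in Agt are also low in liver markers, IH hearts lie to the upper right of most normoxia hearts, and most IH lungs lie above normoxia in both Ren1 and genes detected.

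In heart, 4 of 5 members tested were higher after IH by the adjusted p, none by 1.5-fold. Ace went from a median of 14.6 TPM (7.82 to 22.1) to 23.3 (13.8 to 32.4), and 13 of 24 IH libraries lay above the highest normoxia library. Its log2 change was 0.52 (SE 0.09, adjusted p = 4.25e-06, limma), nearly the same within replicates 1, 2 and 3 (0.58, 0.50 and 0.52), and with TPM as deposited it passed 1.5-fold as well (0.64, adjusted p = 1.61e-06). Agt changed by 0.39 (adjusted p = 0.000421), from a median of 1.19 to 1.81 TPM, Nr3c2 by 0.34 (adjusted p = 0.000896), from 2.34 to 3.68, and Atp6ap2 by 0.19 (adjusted p = 0.0133), from 10.3 to 12.7. Agtr1a, at 0.16, did not pass (adjusted p = 0.194). Nr3c2 and Atp6ap2 lost the adjusted p without replicates 1 and 2 respectively (0.0531 and 0.258).

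Other features of the heart libraries moved with these. Of the 6 endothelial markers 5 passed the adjusted p as higher (median log2 change 0.44), with the sum at a median of 241 TPM in normoxia and 326 after IH. Of 5 pericyte and smooth muscle markers 4 did. Fewer genes were detected after IH (20316 to 22793 against 22988 to 28331, with no overlap), and with that number as a term Ace changed by 0.08 (adjusted p = 0.771), Agt by 0.13 (adjusted p = 0.671) and Nr3c2 by -0.03 (adjusted p = 0.922). Because the groups did not overlap in it, treatment and the number of genes detected cannot be told apart in heart.

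In kidney, renin itself did not pass the test. It ranged from 18.01 to 44.0 TPM in normoxia and from 14.5 to 47.3 after IH (medians 23.8 and 26.8), and the log2 change was 0.11 (95% interval -0.07 to 0.30, adjusted p = 0.395, limma). Ace, Agtr1a, Nr3c2 and Atp6ap2 in kidney lay between -0.06 and 0.08 and did not pass.

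Kidney Hsd11b2 went from a median of 76.9 TPM (53.2 to 109) to 96.5 (49.5 to 146), with 7 of 24 IH libraries above every normoxia library. The log2 change was 0.35 (SE 0.09, adjusted p = 0.00270, limma), and it was 0.40, 0.02 and 0.63 within replicates 1, 2 and 3. It lost the adjusted p without replicate 3 (0.21, adjusted p = 0.152). Kidney Agt went from a median of 21.1 to 28.0 TPM, a change of 0.29 (SE 0.11, adjusted p = 0.0424), which was lost without replicate 1 or 3 (adjusted p = 0.198 and 0.507) and with TPM as deposited (adjusted p = 0.178). The 3 red blood cell markers were called higher in kidney, their sum going from a median of 2585 TPM to 4003, and adipocyte markers from 336 to 410.

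**Figure D4:**
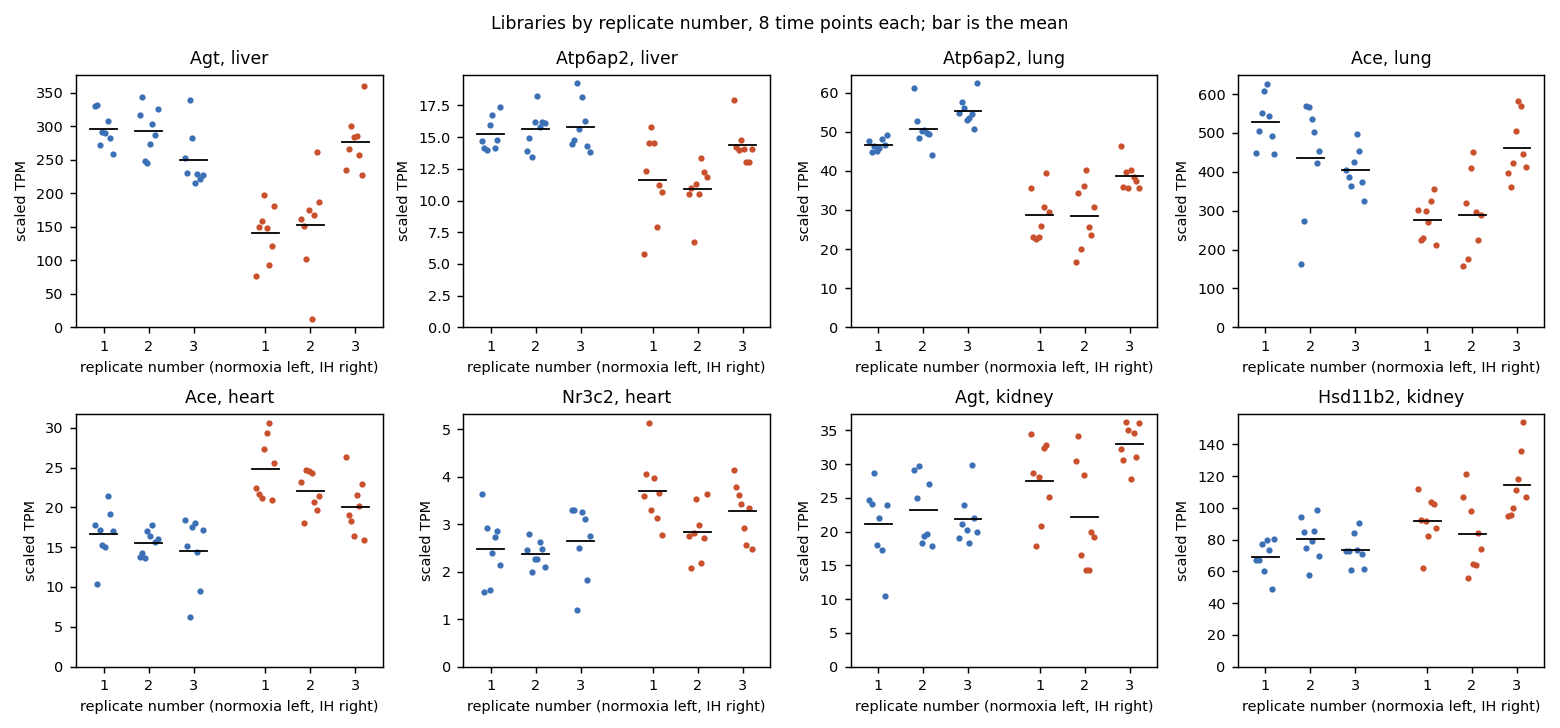
Scaled TPM of single libraries, split by replicate number, with normoxia in blue at the left, IH in red at the right and the mean of 8 time points as a bar, for 8 of the 11 tests past the adjusted p. The IH livers of replicate 3 lie at the level of normoxia for Agt, and the IH kidneys of replicate 3 lie highest for Agt and Hsd11b2.

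In cerebellum and muscle none of the 9 tests passed. Scaled log2 changes lay between -0.00 and 0.10 in cerebellum and between -0.18 and -0.01 in muscle, and the widest intervals were -0.27 to 0.28 for Ace in cerebellum and -0.29 to 0.18 for Agt in muscle. The cerebellum library of IH at 1:30, replicate 3, was low in Agt (11.5 TPM) and Atp6ap2 (36.5 TPM), held 4154 TPM of heart markers, and had 45.4% of its TPM in Gm19220. Heart markers were also found in the normoxia cerebellum libraries, at a sum of 31.1 to 1842 TPM (median 443). There 5 choroid plexus markers summed to 49.6 to 6147 TPM. The part of such RNA in the cerebellum levels of the members was not tested.

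Traces were also seen where a member is barely expressed. Liver Hsd11b2 had a median of 0.0241 TPM in normoxia and 0.163 after IH, and it passed the adjusted p without the filter (0.33, adjusted p = 0.00592). The sum of 6 kidney markers in the same liver libraries went from a median of 3.41 to 82.5 TPM, and in the normoxia livers of replicate 3 both were already high, at 0.199 TPM of Hsd11b2 and 100 TPM of kidney markers (medians). The part of kidney RNA in the Hsd11b2 value was not tested. Agtr1b also passed the adjusted p without the filter, in lung and heart (limma). In lung its mean was 0.211 TPM in normoxia and 0.387 after IH (0.19, adjusted p = 0.00127). In heart it was 0.0177 and 0.00653 TPM (-0.03, adjusted p = 0.000480), with 0 TPM in 2 and 13 of 24 libraries. Without the filter 18754 of 34148 genes passed the adjusted p in lung, 13030 of 34787 in heart and 2303 of 31663 in liver.

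Whether a member responded differently in 2 tissues was tested as an interaction, and 28 of 66 combinations of a member and a tissue pair passed. Of all genes, 65.2% did so between heart and lung, 63.2% between kidney and lung, 56.8% between lung and muscle, 52.6% between liver and lung and 49.8% between cerebellum and lung. In the other pairs it was 40.7% (heart and kidney), 35.4% (heart and muscle), 35.2% (heart and liver), 30.3% (kidney and liver), 27.9% (cerebellum and heart), 22.3% (cerebellum and liver), 22.1% (liver and muscle), 20% (kidney and muscle), 19.4% (cerebellum and muscle) and 12.8% (cerebellum and kidney). Heart and lung differed most for Ace, with 0.96 (SE 0.16, adjusted p = 1.38e-07), and for Atp6ap2, with 0.89 (SE 0.10, adjusted p = 3.17e-12). Agt responded differently in liver than in heart by 1.14 (SE 0.22, adjusted p = 2.51e-05) and than in kidney by 1.04 (SE 0.23, adjusted p = 0.000194). Hsd11b2 differed between kidney and lung by 0.75 (SE 0.12, adjusted p = 1.04e-07).

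The wider pathway was examined through lists of related genes. Beside these counts, the share of all genes past the adjusted p was 28.9% higher and 41.5% lower in lung, 28% and 17.3% in heart, 10.9% and 13.3% in liver, 8.25% and 11.5% in kidney, 9.76% and 5.24% in cerebellum and 5.48% and 4.89% in muscle. Of 15 peptidases that make or degrade angiotensins, 14 were tested in lung, where 9 passed the adjusted p as lower and 3 as higher, with a median log2 change of -0.24. Liver had 5 lower of 11, heart 5 higher of 13, kidney 2 higher of 12, cerebellum 1 lower of 9, and muscle 1 in each direction of 14. Anpep, the aminopeptidase N that trims angiotensin III, was the only one called in several tissues. It fell in liver, from a median of 65.4 TPM (34.8 to 92.8) to 19.49 (5.41 to 42.3), by 1.35 on the log2 scale (SE 0.15, adjusted p = 8.52e-08). It also fell in lung (-0.81, SE 0.12, adjusted p = 1.24e-07), and it rose in kidney, from 37.5 to 61.2 TPM (0.73, SE 0.12, adjusted p = 1.03e-05). In liver it was 0.00 within replicate 3, against -1.96 and -2.11 within the others. Mcpt4, a mast cell chymase, was at 2.33 TPM in normoxia and fell in lung by 0.62 (SE 0.14, adjusted p = 0.000169), a change under 1.5-fold with a pseudocount of 1 (-0.50), with TPM as deposited (-0.39) and without replicate 1 or 2 (-0.57 and -0.46). The lung change of Anpep was -0.51 with TPM as deposited and -0.29 with a term for genes detected (adjusted p = 0.143).

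Of 4 other receptors and partners, Mas1, the receptor of angiotensin 1-7, was called in lung. It went from a median of 0.257 TPM (0.09997 to 0.970) to 1.64 (0.393 to 6.95), a rise of 1.33 (SE 0.15, adjusted p = 1.49e-10). Its normoxia mean was 0.347 TPM and its IH mean 2.14 TPM, so it passed the filter on low values only through the IH libraries, and a gene that enters in this way had to differ. The fits without a single replicate (1.14 to 1.65) and with TPM as deposited (1.51) share this limit and are no support for the call. With a term for genes detected the limma change was 0.52 (adjusted p = 0.0158), under 1.5-fold. The others of the list that were tested were not called in any tissue.

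A further 13 genes were listed as targets of the mineralocorticoid receptor, and whether this receptor set their levels here was not tested. Of these, 11 were tested in lung, and 6 passed the adjusted p as lower and 0 as higher (limma, median -0.34), fewer in all than the 70.4% of lung genes at large. Those called included the sodium channel subunits Scnn1b (-0.61, SE 0.12) and Scnn1g (-0.69, SE 0.14). Both were under 1.5-fold with TPM as deposited (-0.31 and -0.39), and with a term for genes detected they turned to 0.11 and 0.39. Within replicate 3 alone they were -0.00 and 0.12, and both were under 1.5-fold without replicate 1 (-0.45 and -0.42) or 2 (-0.47 and -0.57). The lung markers were lower in the same comparison (median log2 change -0.79), and their part in these changes was not tested. In kidney, where aldosterone acts on sodium uptake, 2 of 13 targets passed as higher and none was called. Of 3 genes of glucocorticoid action (Nr3c1, Hsd11b1, H6pd), 3 passed as higher in heart, 2 as lower in lung and 1 as lower in kidney, none by 1.5-fold. Of 8 genes of renin cells and renin control, 1 of 6 passed in kidney, as higher, 3 of 5 in heart as higher, and 5 of 7 in lung as lower with 1 higher, and none was called.

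A cosine of 24 hours was fitted to TPM to look for a rhythm over the day, and 2 of 80 tests of a member in a tissue and treatment passed. Of all genes, 8.56% did so in liver, 8.49% in kidney, 2.99% in lung, 0.87% in muscle, 0.285% in heart and 0% in cerebellum under normoxia, and 2.86%, 1.19%, 4.46%, 2.28%, 1.21% and 0.00468% after IH, so the members' share was near that of genes at large. Agtr1a in liver under normoxia peaked at 2.42 h with an amplitude of 5.97 TPM, 25.7% of its mean (adjusted p = 0.0139, F-test of the cosine fit over all genes). Its values were 31.0 ± 7.25 TPM at 1:30 (SD, n = 3) and 15.4 ± 0.586 at 13:30. In IH livers the same gene did not pass, with 18.1 ± 5.97 TPM at 1:30 and 8.87 ± 7.23 at 13:30, but the difference between treatments was not shown. The IH value at 13:30 holds the library of replicate 2 that goes against its label, at 3.69 TPM of Agtr1a. It was left out of the rhythm fits only together with the rest of replicate 2.

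Nr3c2 in muscle after IH peaked at 2.78 h with an amplitude of 0.631 TPM (adjusted p = 0.0304) and went from 3.70 ± 0.916 TPM at 1:30 to 2.24 ± 0.568 at 16:30. Both rhythms were lost when single replicates were left out, Agtr1a without replicate 2 (adjusted p = 0.320) or 3 (0.0615) and Nr3c2 without any of the 3 (0.0998 to 0.427). Hsd11b2 in lung under normoxia came near (adjusted p = 0.0609, peak at 12.8 h). Renin in kidney did not pass in either treatment. None of 40 tests of a difference in rhythm between treatments passed the adjusted p (F-test of the interaction), where between 0% and 0.00659% of all genes passed it by tissue. Of the 40 tests, 2 had an unadjusted p under 0.05. The share of all genes at that unadjusted level was not counted, so the 2 are not read as a result.

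**Figure D5:**
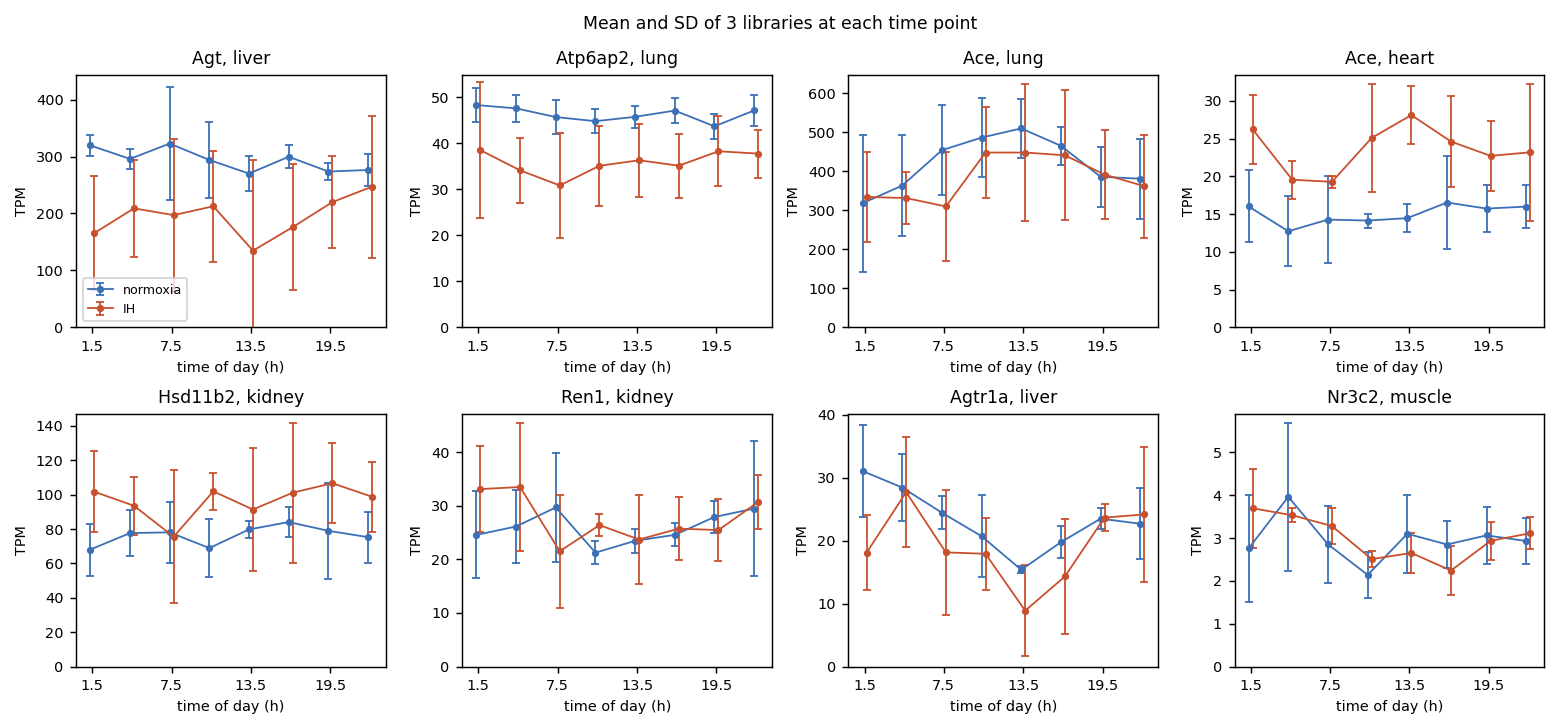
Mean and SD of 3 libraries at each time point, in TPM from 0, for 8 members and tissues, with normoxia in blue and IH in red. Agt in liver, Atp6ap2 in lung and Ace in heart keep the same order of treatments at all 8 time points, while kidney Ren1 crosses.

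The genes whose pattern over the 24 normoxia libraries was most like a member's are given as a description. In lung, Ace was closest to Carhsp1 (Pearson r = 0.99), Clic4 (0.99) and the thrombin receptor F2r (0.99). In kidney, the genes closest to Hsd11b2 included Vac14 (0.93) and Cnnm2 (0.92), and Ren1 was closest to Ube2o (0.87), Fbln7 (0.86) and Gga1 (0.86). In liver, Agtr1a was closest to Enpp3 (0.91), Mcu (0.91) and Slc19a2 (0.90), and Agt to Tmem82 (0.82), Dusp10 (0.82) and Spsb2 (0.79). In lung, Nr3c2 was closest to Ppm1h (0.84), Sgpl1 (0.83) and Cxadr (0.81). In cerebellum, Atp6ap2 was closest to Gm16286 (0.90), Ngrn (0.88) and Ndufa9 (0.88), Agtr2 to Mcf2 (0.84), Slc6a11 (0.81) and Rab3b (0.76), and Agtr1b to Olfr1085, A930033H14Rik and Speer5-ps1 (0.95 to 0.96). All points of a correlation share a tissue, and libraries differ in depth and makeup.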

How the data were processed

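The authors quantified poly(A) RNA-seq reads with Kallisto on Ensembl release 102 (mm10) and deposited TPM per gene, 12 tables of 24 libraries. Library totals lie between 989211 and 999188 TPM, and no 2 libraries were identical. TPM keeps no read counts, so depth and counting error are unknown. Gm19220 took up to 36.3% of TPM in normoxia kidney libraries, 36.5% in IH kidney, 32.0% in normoxia muscle and 24.1% in normoxia cerebellum. The medians of these groups were 3.91%, 4.68%, 2.45% and 5.53%. A large share lowers the TPM of all other genes in that library. The main tissue and rhythm tests used TPM as deposited and do not correct for this. The authors' DESeq2 test on estimated counts was not repeated.

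Within a tissue, libraries were brought to one scale with median-of-ratios factors. Genes averaging 1 TPM or more were taken as log2(TPM + 0.5) and compared between treatments with limma 3.58.1 (R 4.3.3, eBayes with trend), with Benjamini-Hochberg adjustment over all genes. Fold changes are on this scale. A gene is called changed, higher or lower at an adjusted p of 0.05 or less and 1.5-fold. Tissues were compared on TPM as deposited over 144 normoxia libraries in 15 pairs. Rhythm was tested by a 24 h cosine fit on TPM (maximum of at least 1 TPM; scipy 1.17.1, numpy 2.4.6, pandas 2.3.3, Python 3.11.15). Tests are 2-sided. Figures used matplotlib 3.10.9. Positions are from GENCODE mouse release 21 (GRCm38), promoters from RefSeq.

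Named are all members, genes of the pathway lists that were called, and the 3 genes most like each member (highest Pearson r of log2(TPM + 0.5) in the tissue of its highest normoxia mean). A gene that these rules name is not reported here. Anpep within replicates and the traces of liver Hsd11b2 and of Agtr1b were singled out after their values were seen. The members, lists and markers were chosen with earlier results of these data known. Alternatives were other pseudocounts, filters and scaling, and terms for time point, a replicate block or genes detected. Others were a rank test and log2 scale for rhythm, and leaving out replicates or libraries. The replicate block joined libraries of the same time point and replicate number, for the interaction also of the same treatment. For rhythm it was the replicate number alone. Combinations for lung renin, TPM without Gm19220 and leaving out 1 lung and 2 heart libraries of low correlation were added after the data were seen. The methods were tested on simulated data.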

Additional observations from a re-analysis of the deposited data

Results flagged for a closer look

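The response to IH differed between tissues for 6 members by the interaction test (limma, adjusted p of 0.05 or less), which were all the members that could be tested. This was so for Atp6ap2 in 10 tissue pairs, for Agt in 6, for Ace in 5, for Nr3c2 in 5, for Agtr1a in 1 (heart and liver, 0.45, adjusted p = 0.0292) and for Hsd11b2 in 1 (kidney and lung). By pair, 12.8% (cerebellum and kidney) to 65.2% (heart and lung) of all genes passed, so such differences were common among genes at large. Atp6ap2 and Ace were higher after IH in heart and lower in lung, and Agt was higher in heart and kidney and lower in liver. All 5 pairs of Nr3c2 held the heart, whose change of 0.34 was not kept with a term for the number of genes detected. The heart groups did not overlap in that number, so this fit cannot separate it from treatment. Libraries of different tissues share mice by the study's design, which this test does not take into account, and single values in groups of 24 libraries were not tested as outliers.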

How the results depend on the processing

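The 2 calls between IH and normoxia were 2 or 3 in number under the other pseudocounts, filters, scaling, the time point term, the replicate block and without the 5 libraries of low correlation. They were 1 with a term for genes detected and 1 to 3 when a replicate was left out. With TPM as deposited the 2 were Agt in liver and Ace in heart, with Atp6ap2 in lung no longer at 1.5-fold. The 11 tests of a member in a tissue past the adjusted p were 6 to 11 when a replicate was left out. With the term for genes detected the change of lung Ace was 0.46 and that of heart Nr3c2 was -0.031, where the cause was not tested. In heart the groups did not overlap in the number of genes detected, so that fit cannot separate it from treatment. Of the 20 tests that did not pass, 13 changed sign under some alternative. Members with a rhythm, 2, were 1 by the rank test, 5 with scaled TPM (adding Agtr1a in kidney and Ace and Hsd11b2 in lung, all in normoxia) and 0 to 1 when a replicate was left out, where fewer libraries were tested. Interactions past the threshold, 28, were 13 to 29 when a replicate was left out. Neighbouring tissues that differed were 22 to 28 of 35. Over all genes, leaving out the scaling moved the higher and lower calls from 1402 and 677 to 2908 and 58 in lung, from 141 and 236 to 326 and 162 in heart and from 125 and 289 to 70 and 518 in liver.

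Deviations of libraries with the same replicate number correlated above 0.1 in 16 of 24 pairs in liver, 12 of 24 in muscle and 5 to 8 of 24 in the other tissues (median r of -0.14 to 0.22 by tissue). As this was not so for every pair, the number was not used as a pairing in the main tests, only in the replicate block. With the replicate block the calls stayed at 2, the tests past the adjusted p were 12, rhythms were 2, rhythm differences 0, neighbours that differed 26 and interactions 30. With the block, kidney Agt had an adjusted p of 0.0557. The low levels of Agtr1b, Agtr2, Hsd11b2 outside kidney and lung, and Ren1 outside kidney limit what can be seen of them.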
